A study of Homo sapiens with 6 samples.

Results

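Intermediate filaments are the ropes of the cytoskeleton, and the set that a cell builds is a classical marker of its type. The 10 genes described here are the neuronal filament genes NEFL, NEFM, NEFH, INA and PRPH, the progenitor, mesenchymal and glial filament genes VIM, NES and GFAP, and the simple epithelial keratin genes KRT8 and KRT18. They were taken by symbol from the 61853 entries of the deposited expression table, and all 10 were found. Of these, 9 were among the 18040 genes that had enough reads to be tested, and GFAP was not.

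The study profiled RNA of H9, an established line of human embryonic stem cells, with 3 libraries of H9-derived arcuate neurons on day 30 of differentiation and 3 libraries of H9 cells on day 0. The day 30 cultures had been taken through serum replacement (KSR) and then N2 medium with SHH, the hedgehog agonist purmorphamine and the TGF-beta and BMP receptor inhibitors SB431542 and LDN-193189, followed by B-27 with the Notch pathway inhibitor DAPT, replating with a ROCK inhibitor, and BDNF. Every library derives from the same line, and nothing in the labels says whether the 3 libraries of a day came from separate cultures, so p-values measure only the spread between these libraries, which may be technical. The series was deposited to follow factors that process precursor ribosomal RNA, and the filament genes are read here from the same table.

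In neurons, NEFL, NEFM and NEFH encode the light, medium and heavy neurofilament subunits, which assemble together with α-internexin (INA) or peripherin (PRPH) into filaments that fill the axon and set its calibre. In the developing nervous system, neuroepithelial cells and radial glia instead carry vimentin and nestin, GFAP marks astrocytes, and young neurons are known to pass from vimentin and α-internexin to neurofilaments as their axons grow. KRT8 and KRT18 form the obligate keratin pair of simple epithelia and are also made by pluripotent cells.

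Day 30 replicates 1 to 3 held 9688839, 12924842 and 5013643 counts in total, against 7758817, 7178453 and 8794008 counts for day 0 replicates 1 to 3. Over all tested genes, log2 CPM (counts scaled to a common library total) correlated at 0.970 to 0.985 between day 30 libraries and at 0.979 to 0.983 between day 0 libraries, against 0.594 to 0.614 between the days. The labels were checked against markers. All 14 tested pan-neuronal genes were higher on day 30, their summed level being 7580 to 8907 CPM on day 30 and 204 to 216 CPM on day 0. Of 12 tested hypothalamic and arcuate genes, 9 were higher, 1 was lower and 2, LEPR and FEZF1, did not pass, with POMC averaging 1560 ± 333 CPM in day 30 cultures, against 0.986 ± 0.264 CPM in H9 cells of day 0 (SD, n = 3 each), while the arcuate peptide genes AGRP and NPY held 6 and 19 counts over the 3 day 30 libraries. The lower gene was CRABP1, a retinoic acid binding protein, with 29 counts summed over day 30, against 2053 over day 0 (-6.45 ± 0.26 on the log2 scale). All 12 pluripotency genes were lower. Day 30 replicate 3 stood apart from the other day 30 libraries in 14 mesenchymal and neural crest markers, which summed to 5094 CPM there and to 201 and 745 CPM in replicates 1 and 2, against 767 to 1024 CPM in day 0 libraries. Without that library every call on the 10 genes given below was kept.

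The neuronal filament genes rose and the keratins fell, but not all members of either the neuronal or the progenitor group moved. Among the 9 tested genes, 4 were higher on day 30 (NEFL, NEFM, INA and PRPH) and 3 were lower (NES, KRT8 and KRT18), by edgeR's quasi-likelihood test with Benjamini-Hochberg adjustment over all tested genes and a threshold of 0.05. NEFH and VIM did not pass. These counts stand against a background in which most genes changed: 39.8% of the 18040 tested genes were higher on day 30 and 36.8% were lower, 76.6% in either direction, with a median log2 fold change of 0.08 and quartiles at -0.99 and 1.33. A share of 7 in 9 called is therefore close to the share of all genes, and it is the sizes and the identity of the genes that the values below describe. Because these are bulk cultures, a lower level cannot be told apart between fewer cells of a type and less RNA per cell.

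**Figure D1:**
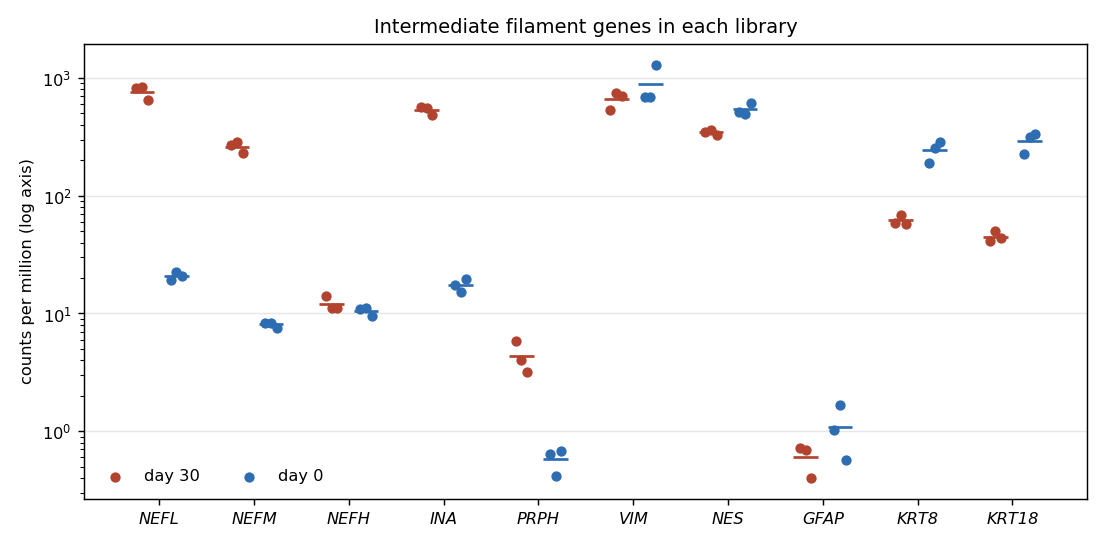
CPM (log axis) of the 10 intermediate filament genes in each of the 3 day 30 libraries (red) and the 3 day 0 libraries (blue), with a line at each group's mean. NEFL, NEFM, INA and PRPH lie wholly above their day 0 values on day 30, NES, KRT8 and KRT18 wholly below, and NEFH, VIM and GFAP overlap.

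NEFL, the light subunit without which neurofilaments do not assemble, is annotated as ENSG00000277586.4 on chromosome 8 at 24950955 to 24957110 (minus strand, build hg38, GENCODE release 29, as for the positions that follow). Its level was 814, 832 and 647 CPM in day 30 replicates 1 to 3, against 19.2, 22.4 and 20.9 CPM in day 0 replicates 1 to 3. The groups lay far apart, and replicate 3 was the lowest of the day 30 libraries. The log2 fold change was 5.11 ± 0.17 (approximate SE, adjusted p = 1.63e-09, edgeR), and 793 was its rank by log2 fold change among all tested genes. It stayed between 4.99 and 5.26 in every alternative analysis.

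NEFM (ENSG00000104722.14), the medium subunit, lies next to NEFL on chromosome 8 at 24913012 to 24919098 on the plus strand. It had 268, 285 and 231 CPM in the day 30 libraries, against 8.38, 8.36 and 7.51 CPM in the day 0 libraries. The order of the day 30 libraries was that of NEFL, and the log2 fold change was 4.93 ± 0.15 (adjusted p = 1.19e-09, edgeR). The ratio of NEFM to NEFL, as reads per kilobase, differed by -0.18 on the log2 scale between the days (exact permutation p = 0.1, adjusted p = 0.15 over 6 ratios of members compared). With 3 libraries against 3, 0.1 is the smallest p that the exact 2-sided permutation test can give.

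An antisense gene, AF106564.1, covers 38.9% of the exon bases of NEFM. It was counted at 92.5, 136 and 51.5 in the day 30 libraries, against 27, 22 and 23 in the day 0 libraries, where NEFM itself held 7438 counts summed over day 30, against 191 over day 0. The library kit marks strand, but which strand setting the counting used is not stated.

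NEFH (ENSG00000100285.10, chromosome 22, 29480230 to 29491390, plus strand) encodes the heavy subunit, whose long phosphorylated tail spaces mature axonal filaments and which appears late in development. It had 14.1, 11.1 and 11.2 CPM on day 30, against 11.0, 11.1 and 9.44 CPM on day 0. These ranges overlapped, unlike those of 79.4% of all tested genes. The log2 fold change was 0.13 ± 0.18 (adjusted p = 0.538, edgeR). It lay between -0.03 and 0.22 over the alternatives, the negative value arising without day 30 replicate 1, and no alternative passed the threshold.

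The heavy subunit stood far below the light one on day 30. Per kilobase, NEFH stood at 0.0199, 0.0153 and 0.0198 of NEFL on day 30, against 0.653, 0.570 and 0.516 on day 0. The ratio was lower on day 30 by 4.99 on the log2 scale, with no overlap between the days (exact permutation p = 0.1, adjusted p = 0.15 over 6 ratios). The tested genes closest to NEFH in their 6 log2 CPM values were PRKCD and COMMD5, at Euclidean distances of 0.305 and 0.323.

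INA (ENSG00000148798.11, chromosome 10, 103277163 to 103290351, plus strand) encodes α-internexin, the neuronal filament protein that appears before the neurofilament triplet and co-assembles with it in the central nervous system. Its level was 567, 555 and 486 CPM on day 30, against 17.4, 15.2 and 19.6 CPM on day 0. All day 30 libraries were high and close to each other, and the log2 fold change was 4.85 ± 0.16 (adjusted p = 1.62e-09, edgeR). The ratio of INA to NEFL differed between the days by -0.24 on the log2 scale, and the libraries of the days overlapped (exact permutation p = 0.3, adjusted p = 0.3 over 6 ratios).

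PRPH (ENSG00000135406.14, chromosome 12, 49293252 to 49298686, plus strand) encodes peripherin, the filament protein best known from peripheral and motor neurons and also made by some central neurons. It rose at a low level, with 5.88, 4.02 and 3.19 CPM on day 30, against 0.64, 0.42 and 0.68 CPM on day 0. These values rest on 57, 52 and 16 counts in the day 30 libraries and on 5, 3 and 6 counts in the day 0 libraries, so counting error is large on day 0. The groups did not overlap, and the log2 fold change was 2.80 ± 0.40 (adjusted p = 8.28e-05, edgeR). It rose less than INA: the ratio of PRPH to INA was lower on day 30 by 2.06 on the log2 scale, without overlap (exact permutation p = 0.1, adjusted p = 0.15 over 6 ratios).

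An antisense gene, AC125611.4, covers 56.2% of the exon bases of PRPH, and it was counted at 6, 7 and 1 in the day 30 libraries and at 0 in every day 0 library. Of 15 markers of peripheral, sensory and motor neurons, 4 were tested and all 4 were higher on day 30. They were the cholinergic genes CHAT, SLC18A3 and SLC5A7 and the catecholamine gene TH, of which CHAT held 761 counts summed over day 30, against 2 over day 0, and TH held 1378 and 0. The 11 others had too few reads to be tested. Whether these cells hold the PRPH reads was not tested.

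The promoter sequences of INA and PRPH are shown because both genes rose on day 30, to very different levels, and their windows differ in composition. They are RefSeq windows of 300 bases (GRCh38.p14), from 250 bases before to 50 bases after the RefSeq start, and the table used held such a window for 5 of the 10 genes. Capitals mark TATAAA, the TATA box, or GGGCGG, the core of the GC box, on either strand, so that GGGCGG on the other strand reads CCGCCC.
INA, chr10:103276888-103277187, plus strand: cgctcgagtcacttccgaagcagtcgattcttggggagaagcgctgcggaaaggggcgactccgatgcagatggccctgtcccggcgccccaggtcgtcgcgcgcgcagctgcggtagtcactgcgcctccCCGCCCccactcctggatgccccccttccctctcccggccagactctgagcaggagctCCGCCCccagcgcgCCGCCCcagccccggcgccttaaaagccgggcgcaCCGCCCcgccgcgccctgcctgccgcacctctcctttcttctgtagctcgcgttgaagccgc
PRPH, chr12:49294897-49295196, plus strand: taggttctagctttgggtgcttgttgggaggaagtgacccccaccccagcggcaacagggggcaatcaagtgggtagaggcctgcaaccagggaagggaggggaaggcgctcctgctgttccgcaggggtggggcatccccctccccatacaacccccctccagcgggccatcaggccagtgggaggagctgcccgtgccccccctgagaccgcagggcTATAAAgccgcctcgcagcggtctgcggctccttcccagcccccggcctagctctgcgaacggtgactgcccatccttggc
The INA window had 35 CpG dinucleotides and 4 matches to GGGCGG, with first bases at -119, -61, -47 and -12 from the start, and no TATAAA. The PRPH window had 13 CpG dinucleotides and 1 TATAAA at -31, and no GGGCGG. Its RefSeq start lies 1445 bases from that of the longest principal transcript in GENCODE. Over the 35116 windows of the same table, the median was 14 CpG dinucleotides (quartiles 4 and 28), 45.0% held GGGCGG and 11.5% held TATAAA. A match is a description of the letters and not a measured binding site.

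VIM (ENSG00000026025.16, chromosome 10, 17228259 to 17237593, plus strand) encodes vimentin, the filament protein of mesenchymal cells, neural progenitors, astroglia and most cultured lines. It had 535, 743 and 698 CPM on day 30, against 693, 690 and 1297 CPM on day 0. Day 0 replicate 3 held nearly the whole difference in means, and the other day 0 libraries lay inside the day 30 range. The log2 fold change was -0.55 ± 0.25 (adjusted p = 0.0653, edgeR), so VIM did not pass the threshold. Without day 0 replicate 3 it was -0.15 (adjusted p = 0.35), whereas without day 0 replicate 1 or 2 it passed, at -0.77 (adjusted p = 0.0181) and -0.73 (adjusted p = 0.0329, edgeR).

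VIM was thus still among the most abundant filament genes of the day 30 cultures. Its window is shown beside those of INA and PRPH because VIM was abundant on both days; it had 10 CpG dinucleotides and 1 GGGCGG at -46, in capitals.
VIM, chr10:17227991-17228290, plus strand: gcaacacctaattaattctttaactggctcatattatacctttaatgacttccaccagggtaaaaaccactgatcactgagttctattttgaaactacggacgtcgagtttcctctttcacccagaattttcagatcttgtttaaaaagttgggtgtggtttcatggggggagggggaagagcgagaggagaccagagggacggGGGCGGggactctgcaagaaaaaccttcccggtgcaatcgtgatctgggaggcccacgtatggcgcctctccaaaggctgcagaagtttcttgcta
TGANTCA, the AP-1 motif known to act on the human vimentin gene from farther upstream, was not in this window and is in 7.71% of all windows. The antisense gene VIM-AS1, which shares 12.4% of the VIM exon bases, was higher on day 30 (91 counts summed over day 30, against 31 over day 0, log2 fold change 1.21 ± 0.41, adjusted p = 0.0188, edgeR).

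Other cells that carry vimentin were measured by their markers. Among 14 mesenchymal and neural crest genes, 11 were tested, 4 of them were higher and 2 were lower, with a median log2 fold change of 0.43. The collagen gene COL1A1 had 83.0, 251 and 1814 CPM on day 30, against 96.1, 87.9 and 109 CPM on day 0, and COL3A1 had 16.2, 73.2 and 902 CPM, against 1.42, 24.1 and 5.00 CPM. The rise of this list rests on day 30 replicate 3. Without it 1 gene was higher and 6 were lower, and by limma-voom with all libraries 0 were higher. FOXD3, listed as a neural crest factor, held 0 counts summed over day 30, against 237 over day 0. Which cells held these reads was not tested. In day 30 replicates 1 to 3 the 14 markers summed to 201, 745 and 5094 CPM, and VIM had 535, 743 and 698 CPM. The part of mesenchymal and neural crest cells in the VIM level was not tested.

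**Figure D2:**
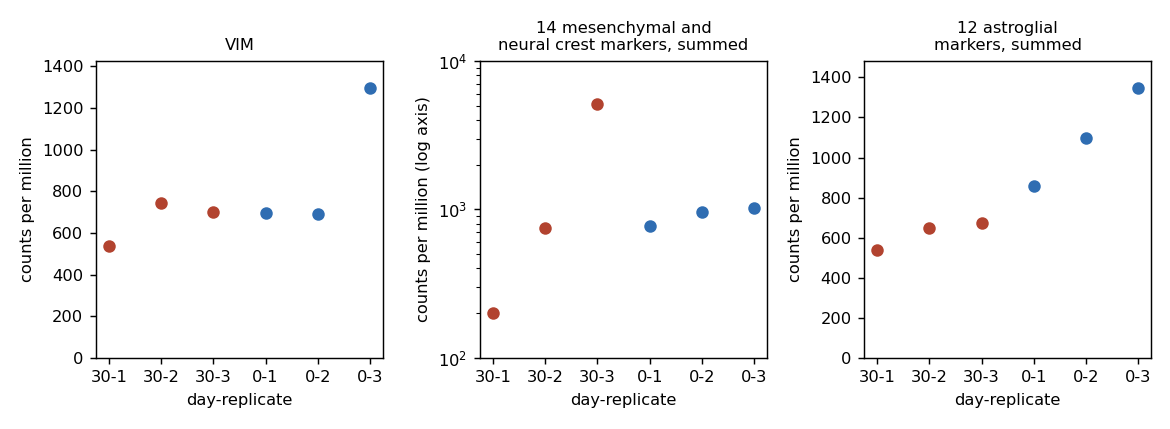
CPM in each library (day and replicate on the horizontal axis; red, day 30; blue, day 0) of VIM, of 14 mesenchymal and neural crest markers summed (log axis) and of 12 astroglial markers summed. Day 30 replicate 3 stands highest in the mesenchymal sum at 5094 CPM, and VIM is highest in day 0 replicate 3 at 1297 CPM.

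NES (ENSG00000132688.11, chromosome 1, 156668763 to 156677397, minus strand) encodes nestin, the large filament protein of neural progenitors that assembles only together with a partner such as vimentin. It fell modestly, to 349, 361 and 327 CPM on day 30, against 513, 494 and 614 CPM on day 0. The groups did not overlap, and the log2 fold change was -0.74 ± 0.13 (adjusted p = 0.000397, edgeR). The ratio of NES to VIM differed by -0.25 on the log2 scale and overlapped between the days (exact permutation p = 0.3, adjusted p = 0.3 over 6 ratios). The tested genes closest to NES in their 6 log2 CPM values were RANBP2 and PRRC2C, at Euclidean distances of 0.260 and 0.338.

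Other progenitor genes were read as a list. Of 15 radial glia and neural progenitor genes, 11 were tested, 3 were higher and 6 were lower, with a median log2 fold change of -1.35. Among those lower were PROM1, the stem cell surface protein prominin (-5.99 ± 0.33), the receptor gene NOTCH1 (-3.82 ± 0.45) and the glial glutamate transporter SLC1A3 (-3.32 ± 0.42). SOX1, an early neural factor, was higher, with 488 counts summed over day 30, against 2 over day 0, as were SOX9 (1.40 ± 0.42) and MSI1 (0.55 ± 0.20). The summed level of the list was 244, 296 and 529 CPM on day 30, against 889, 842 and 937 CPM on day 0. The high sum of day 30 replicate 3 rests on 1 gene, the matrix gene TNC, which had 16.9, 44.0 and 311 CPM on day 30, against 27.8, 48.3 and 92.0 CPM on day 0, and did not pass (adjusted p = 0.306, edgeR). TNC is also made by mesenchymal cells, whose markers were highest in the same library. Whether such cells hold the TNC reads was not tested. SOX2, a stem and progenitor factor, was lowest in day 30 replicate 3. It had 74.0, 76.0 and 37.9 CPM on day 30, against 225, 196 and 201 CPM on day 0.

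GFAP (ENSG00000131095.14, chromosome 17, 44903161 to 44916937, minus strand), the astrocyte filament gene, stayed near the floor of detection. It held 7, 9 and 2 counts in the day 30 libraries, against 8, 12 and 5 counts in the day 0 libraries, or 0.72, 0.70 and 0.40 CPM against 1.03, 1.67 and 0.57 CPM. A count of 0 would still have allowed 3 counts in a library, so the lowest of these lies under that limit, and such limits cover counting error only. Kept in the test without a filter on low counts, its log2 fold change was -0.81 (adjusted p = 0.277, edgeR). Exons of CCDC103 on the other strand cover 18.4% of the GFAP exon bases and were themselves counted at 40.5, 50 and 13.5 on day 30, against 4, 9 and 10 on day 0.

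Of 12 astroglial markers, 8 were tested, of which 4 were higher and 3 lower. The glutamate transporter SLC1A2, which some neurons also make, was higher (4.98 ± 0.20 on the log2 scale), while the gap junction gene GJA1 (-3.07 ± 0.48) and the water channel AQP4 (-2.82 ± 0.49), at 8 counts over the day 30 libraries, were lower. Tanycytes are the ependymal-like glia that line the third ventricle beside the arcuate nucleus. Of 8 tanycyte markers, 6 were tested. Among these, 4 were higher, led by SCN7A (6.87 ± 0.27) and GPR50 (5.56 ± 0.28), and 2 were lower, ADM (-5.49 ± 0.51) and CRYM (-3.39 ± 0.41). The 2 others had too few reads to be tested. RAX held 1 count summed over day 30, against 5 over day 0, and DIO2 held 53 and 22.

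KRT8 (ENSG00000170421.13, chromosome 12, 52897187 to 52949954, minus strand) and KRT18 (ENSG00000111057.11, chromosome 12, 52948871 to 52952901, plus strand) are the type II and type I partners of the simple epithelial pair, and neighbours in the genome. KRT8 fell to 58.5, 68.6 and 58.0 CPM on day 30, against 189, 254 and 285 CPM on day 0. KRT18 fell to 41.2, 50.2 and 43.5 CPM on day 30, against 225, 317 and 333 CPM on day 0. In both genes the day 30 libraries were tightly grouped and far below every day 0 library. The log2 fold changes were -2.07 ± 0.18 for KRT8 (adjusted p = 1.40e-06) and -2.80 ± 0.18 for KRT18 (adjusted p = 1.63e-07, edgeR). The tested genes closest to KRT8 in their log2 CPM values were SLC39A14 and SHMT2, at Euclidean distances of 0.274 and 0.366.

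The partners did not fall by the same amount. The ratio of KRT8 to KRT18 per kilobase of joined exons was 0.665, 0.638 and 0.624 on day 30, against 0.393, 0.375 and 0.400 on day 0. It was higher on day 30 by 0.72 on the log2 scale, without overlap (exact permutation p = 0.1, adjusted p = 0.15 over 6 ratios). Exons of the genes overlap on opposite strands over 525 bases, which are 7.63% of the KRT8 and 16.3% of the KRT18 exon bases.

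**Figure D3:**
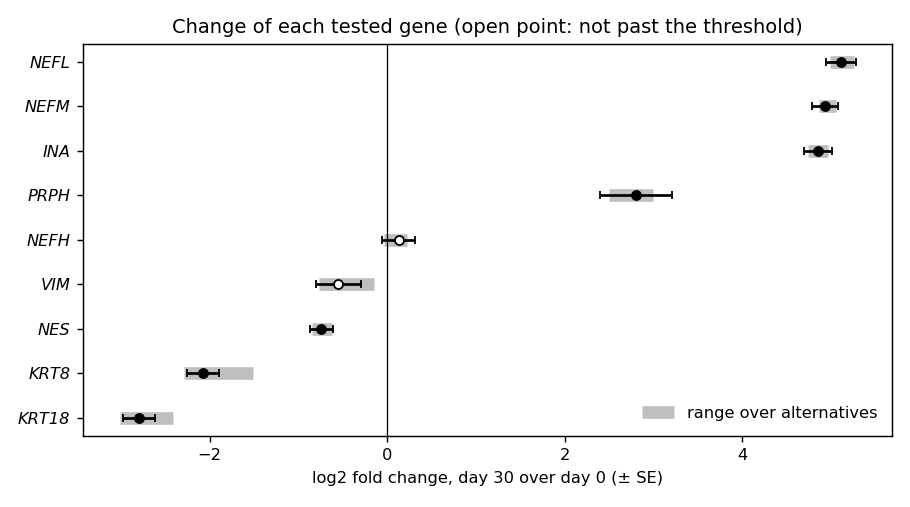
Log2 fold change of day 30 over day 0 with its approximate standard error (edgeR) for the 9 tested intermediate filament genes; filled points passed an adjusted p of 0.05, open points did not, and grey bars span the values over the alternative analyses. NEFL, NEFM and INA lie together at 4.85 to 5.11, and the grey bars of KRT8 and KRT18 reach nearest to 0 in the alternative that adds pseudogene reads.

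Epithelial genes fell as well. Of 14 listed epithelial markers, 12 were tested, 11 were lower and 0 were higher, with a median log2 fold change of -6.34. The splicing regulator ESRP1 fell by 7.80 ± 0.18, the transcription factor GRHL2 fell by 7.47 ± 0.31 and E-cadherin (CDH1) fell by 7.18 ± 0.30 on the log2 scale. Of 12 trophoblast and endoderm markers, which could accompany keratins in stray cells, 1 was tested, AFP, and it was lower (-6.36 ± 0.41), while the list summed to 1.70 to 4.39 CPM on day 30 and to 11.6 to 18.3 CPM on day 0.

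KRT8 and KRT18 are also the filament genes with the most processed pseudogenes, and these held a larger share of the reads on day 30. Of 51 KRT8 copies in the table, 26 had reads and 8 were tested, of which 4 were higher on day 30 and 1 was lower. Of 67 KRT18 copies, 21 had reads, 3 were tested and 1 was higher. Reads assigned to copies made up 36.1% of KRT8 and its copies together on day 30 (983.5 counts, against 1744 for KRT8) and 7.96% on day 0 (501.5 counts, against 5797.5). For KRT18 the share was 24.1% on day 30 and 2.93% on day 0. With all reads of the copies added to their parents, KRT8 was lower on day 30 by 1.51 and KRT18 by 2.42 on the log2 scale, both still past the threshold.

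Among the tested copies KRT8P15 had the largest log2 fold change, with 54, 57 and 31 counts on day 30, against 1, 2 and 3 counts on day 0 (log2 fold change 4.23 ± 0.42, adjusted p = 4.76e-06, edgeR). It lies in an intron of ICA1L on the same strand, a gene that rose by 3.75 ± 0.14. KRT8P46, with 96, 143 and 58 counts on day 30, against 27.5, 32 and 35.5 on day 0, gained more reads but rose by 1.32 ± 0.21 inside MANBA, which rose by 0.70 ± 0.13. KRT8P39, in NUP107, was lower (-1.26 ± 0.37), as was NUP107 (-2.59 ± 0.13). The plot of copies against the genes around them shows these values for 8 copies. Of these, KRT8P50 shares 1254 of its 1438 bases with exons of TTBK2, and KRT18P5 shares 478 of 1291 with exons of KLHL22. The other plotted copies lie outside the exons of the genes around them. Whether reads of the surrounding genes' transcripts are what was counted in the copies was not tested.

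Over their best alignments KRT8P15 and KRT8P46 were 88.9% and 90.1% identical to the KRT8 transcript (GENCODE release 29), and the tested copies of both keratins were 82.2% to 93.8% identical to their parents. How the authors' counting treated reads that match several places is not stated in the labels, so the split between parents and copies is uncertain.

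**Figure D4:**
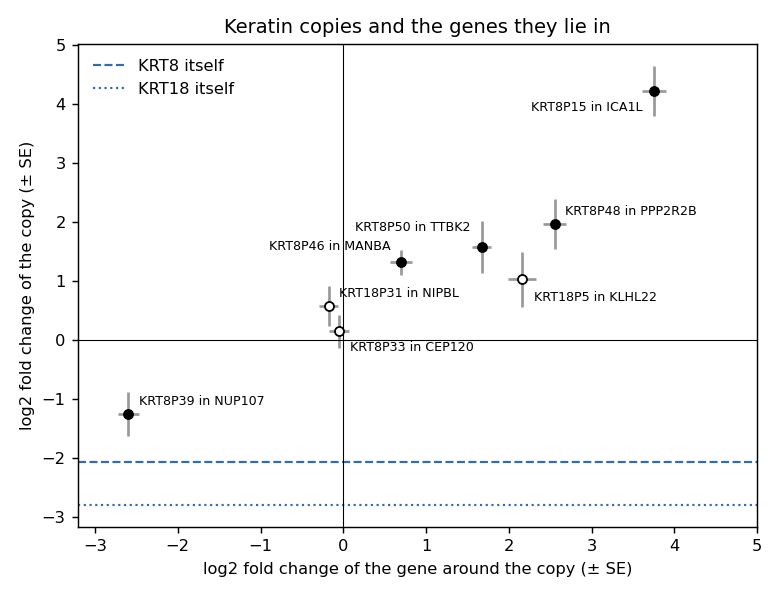
Log2 fold change of day 30 over day 0 (± approximate SE) of each tested KRT8 or KRT18 copy that lies within a gene of the same strand (vertical axis), against that of the gene around it (horizontal axis); filled points passed an adjusted p of 0.05 and lines mark KRT8 and KRT18. KRT8P15 in ICA1L is at the upper right, KRT8P39 in NUP107 at the lower left, and all 8 copies lie above both keratin lines.

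Scaled per kilobase of joined exons (RPKM), the order of levels changed between the days. On day 30 it was NEFL (177 ± 23.6 RPKM, SD, n = 3) and INA (166 ± 13.6), whose ranges overlapped, then VIM (128 ± 21.3), then NES (62.2 ± 3.12) and NEFM (59.6 ± 6.35), which also overlapped. KRT18 (13.97 ± 1.46), KRT8 (8.97 ± 0.862), NEFH (3.21 ± 0.456), PRPH (1.00 ± 0.317) and GFAP (0.05003 ± 0.0148) followed without overlap. On day 0 VIM came first (173 ± 67.7 RPKM), above NES (97.2 ± 11.7) and KRT18 (90.7 ± 18.05), which overlapped each other, and KRT8 (35.3 ± 7.11). INA (5.38 ± 0.677) and NEFL (4.81 ± 0.365) overlapped below these, above NEFH (2.78 ± 0.247) and NEFM (1.84 ± 0.114), and PRPH (0.134 ± 0.0328) and GFAP (0.0900 ± 0.0457) overlapped at the end. NEFH thus exceeded NEFM per kilobase on day 0, and was far below it on day 30. Parts of this order turned with the length used. As shares of the 10 genes with the length of 1 principal transcript per gene, VIM came first on day 30 (36.2% ± 4.91), above NEFL (21.99% ± 2.48) and INA (19.5% ± 1.74), and KRT8 (3.41% ± 0.0579) and KRT18 (3.38% ± 0.122) lay together. On day 0 both KRT18 (22.8% ± 3.79) and KRT8 (13.9% ± 1.81) then had higher mean shares than NES (12.0% ± 1.82). Without length scaling VIM (24.5% ± 3.95) had a higher mean share than INA (19.9% ± 1.24) on day 30.

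As shares of the per-kilobase level of all 10 genes, the 5 neuronal genes held 65.6% ± 3.72 on day 30 and 3.75% ± 0.744 on day 0. VIM and NES together held 30.7% ± 3.52 on day 30 and 65.3% ± 4.98 on day 0. The keratins held 3.70% ± 0.221 on day 30 and 30.9% ± 4.65 on day 0 (SD, n = 3 each). A share of a common total also falls when other members rise. In CPM, VIM and NES summed to 1004 ± 112 on day 30 and 1434 ± 413 on day 0. The neuronal genes summed to 1578 ± 174 CPM on day 30 and 57.4 ± 0.77 CPM on day 0. The keratins summed to 107 ± 10.5 CPM on day 30 and 534.5 ± 107 CPM on day 0. The neuronal share was 69.6%, 64.9% and 62.2% in the day 30 libraries, against 4.36%, 3.97% and 2.92% in the day 0 libraries. The length chosen matters to these shares: without length scaling the neuronal share was 58.6% on day 30 and 2.93% on day 0, and with the length of 1 principal transcript per gene 49.7% on day 30 and 1.93% on day 0. With that length VIM and NES held 43.5% on day 30 and 61.3% on day 0, and the keratins 6.78% on day 30 and 36.7% on day 0. In CPM, all 10 genes summed to 2690 ± 206 on day 30 and 2027 ± 491 on day 0. The libraries held 2652.8, 2912 and 2504.5 CPM on day 30, against 1678.1, 1813.5 and 2587.8 CPM on day 0. These ranges overlapped only through day 0 replicate 3, the library with the highest VIM level. The joined-exon shares of the neuronal genes, of VIM with NES and of the keratins did not overlap between the days. As single genes, NEFH and GFAP had shares that overlapped.

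**Figure D5:**
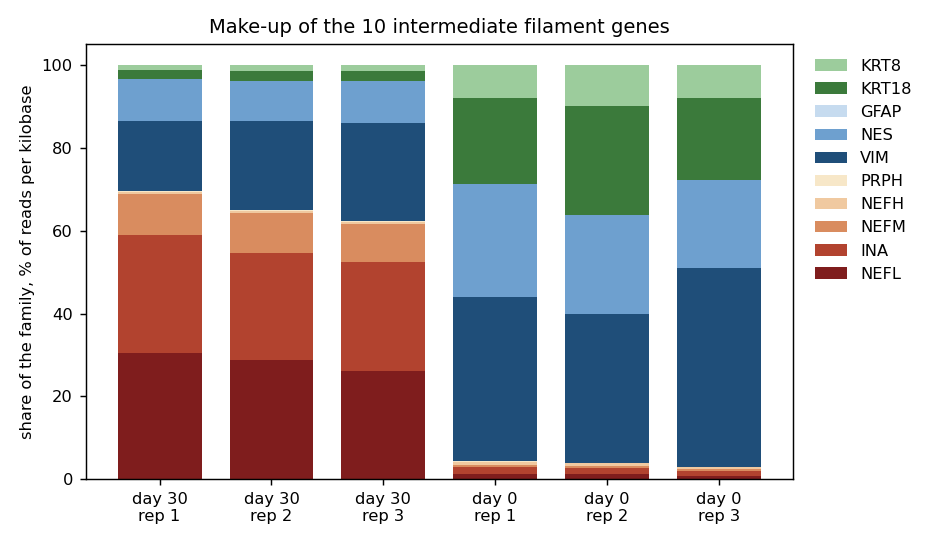
Share of each gene in the summed reads per kilobase of the 10 intermediate filament genes (%, stacked to 100) in each day 30 and day 0 library. NEFL and INA make up most of the neuronal 62.2% to 69.6% of the day 30 libraries, and VIM, NES and KRT18 most of the day 0 libraries.

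The other intermediate filament genes were mainly silent. Of 58 further cytoplasmic members, 37 had no reads in any library and 8 were tested, of which 3 were higher and 2 lower, with a median log2 fold change of -0.06. SYNC, encoding syncoilin, had 5.16, 7.81 and 11.4 CPM on day 30, against 0.258, 0.418 and 0.682 CPM on day 0 (log2 fold change 3.96 ± 0.45, adjusted p = 1.26e-05, edgeR). KRT80 (2.78 ± 0.63) and KRT7 (2.22 ± 0.53) were the others that rose. KRT19, another simple epithelial keratin, fell to 4.54, 15.9 and 7.98 CPM on day 30, against 51.9, 43.9 and 53.3 CPM on day 0 (-2.43 ± 0.33), and BFSP1, the lens filament gene filensin, was lower (-1.04 ± 0.30). In the nucleus, the B-type lamin genes LMNB1 (-2.77 ± 0.11) and LMNB2 (-2.34 ± 0.12) fell, and LMNA, which encodes lamins A and C, had 70.8 ± 16.2 CPM on day 30 and 58.8 ± 10.6 CPM on day 0 (0.16 ± 0.18, adjusted p = 0.438).

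Genes that modify, carry and anchor the filaments were read as lists of companions. Counts of called genes in these lists and those above stand against 39.8% of all tested genes higher and 36.8% lower. Whether any list exceeded these shares was not tested. Of 12 kinase and phosphatase genes known to act on neurofilament tails, 8 were higher and 0 were lower, with a median of 0.86. Higher were the kinase gene CDK5 (1.48 ± 0.18), its activator CDK5R1 (4.04 ± 0.15) and the JNK gene MAPK10 (5.05 ± 0.18), and the second activator, CDK5R2, held 691 counts summed over day 30, against 1 over day 0. The phosphatase subunit genes PPP2CA (0.09 ± 0.11) and PPP2R1A (-0.04 ± 0.10) did not pass. Of 8 motor genes that move neurofilaments along the axon, 7 were higher, led by the neuronal kinesins KIF5A (4.32 ± 0.18) and KIF5C (2.90 ± 0.13) and the myosin MYO5A (2.21 ± 0.11), while the ubiquitous kinesin KIF5B had 253 ± 22.1 CPM on day 30 and 247 ± 8.76 CPM on day 0 (-0.05 ± 0.12).

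The kinases that take filaments apart in dividing cells went the other way. Of 9 mitotic filament kinase genes, 7 were lower and 1 was higher, with a median of -3.95. Lower were CDK1 (-6.65 ± 0.21), AURKB (-6.22 ± 0.24) and the cyclin CCNB1 (-5.09 ± 0.19), and PAK2 was higher (0.41 ± 0.14). Among 10 genes of neurofilament turnover, 3 were higher and 3 lower, with a median of -0.01. The ubiquitin ligase TRIM2, which acts on NEFL in mouse, rose by 2.00 ± 0.12, and the chaperone genes DNAJB6 (-1.68 ± 0.11), HSPB1 (-1.29 ± 0.13) and HSPA8 (-0.68 ± 0.20) fell.

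Of 21 linker and desmosome genes, 15 were tested, 2 were higher and 9 were lower, with a median of -1.26. Those lower were mainly desmosomal: the plakophilin PKP2 (-3.34 ± 0.21), the cadherins DSG2 (-3.69 ± 0.41) and DSC2 (-3.11 ± 0.19), and PKP3, which held 3 counts summed over day 30, against 184 over day 0. DST, the dystonin gene whose neuronal product links filaments to other cytoskeletal fibres, was higher (0.84 ± 0.12), as was SYNE3, encoding the nesprin that joins plectin to the nuclear envelope (5.71 ± 0.43). PLEC itself had 175 ± 57.8 CPM on day 30 and 131 ± 24.8 CPM on day 0 (0.32 ± 0.20, adjusted p = 0.166). Over the 6 libraries the tested genes closest to NEFL were CADPS, a gene of dense core vesicle release, and ATP9A, at distances of 0.649 and 0.654 in log2 CPM, and those closest to VIM were HSP90B1 and CLTC, at 0.838 and 0.954.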

How the data were processed

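Total RNA was depleted of ribosomal RNA, made into stranded libraries (TruSeq) and sequenced on an Illumina NovaSeq instrument, per the labels' protocols. The values deposited by the authors were taken to be expected counts, a unit read from the values: 92.6% of them are whole numbers, 83.7% of those above 0, and the others are fractions, which sharing of reads between overlapping genes or matching places could also give. Per the submitters' processing notes, build hg38 and FastQC 0.11.9 were used. Not given in the sources used here are the aligner, counter, annotation and strand setting. Columns of values not used numbered 0. Counts were rounded to whole numbers and tested in R 4.3.3 with edgeR 4.0.16 (quasi-likelihood, TMM, filterByExpr, 2-sided, Benjamini-Hochberg), where the plan allowed for raw counts. Standard errors are approximate, the size of the log2 fold change over the root of F. limma 3.58.1 and DESeq2 1.42.0 were alternatives, and the fit was tested on simulated data. Only a small part of the genes changed in the simulation, whereas most tested genes were called here. It therefore does not show how the fit behaves when most genes change. Symbols came from the gene name table supplied with the data for 42054 entries. Positions and exon lengths came from GENCODE 29, and copies were aligned with BLAST+ 2.17.0. CPM uses total counts; RPKM further divides by the joined exon length. Exact permutation tests used scipy 1.17.1. The members and the 17 companion lists (254 entries) were chosen with earlier results of these data known. Named were all members, up to 3 called genes with the largest rise and fall in each list, the 2 nearest genes of 5 members, and pseudogenes and antisense genes of members; other genes were named after their values were seen.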

Additional observations from a re-analysis of the deposited data

How the results depend on the processing

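The calls on NEFL, NEFM, INA, NES, KRT8 and KRT18 were kept in all 15 alternatives, and that on PRPH in the 14 that tested it, since a filter of 10 CPM in 3 libraries removed it. Members called higher numbered 3 to 4 and members called lower 3 to 4, VIM being the added one. VIM passed without a filter on low counts (-0.56, adjusted p = 0.00025, edgeR) and without day 0 replicate 1 (-0.77) or 2 (-0.73), and not by DESeq2 (adjusted p = 0.168); the cause was not tested. In the companion lists, the filter of 10 CPM left 1 other cytoplasmic filament gene higher and 1 lower, 1 tanycyte gene lower and 1 mesenchymal gene lower. Without a filter, 4 other filament genes, 5 astroglial, 4 mesenchymal and 2 trophoblast or endoderm genes were lower, and 1 of the last list was higher. limma-voom gave 0 mesenchymal genes higher and 4 lower. With 1 library left out at a time, linkers higher ranged over 2 to 4, turnover genes higher 1 to 3, mitotic kinases higher 0 to 1, astroglial genes lower 3 to 5, mesenchymal genes higher 1 to 6 and lower 2 to 6, and hypothalamic genes lower 1 to 2. The neuronal share was 58.6% on day 30 and 2.93% on day 0 without length scaling, and 49.7% and 1.93% with the principal transcript's length, an alternative chosen after seeing the data. Over all genes, calls higher ranged over 4895 to 9147.

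Deviations of libraries with the same replicate number correlated at 0.07, -0.00 and -0.05, and those of different numbers at -0.13 to 0.14. These values cannot exclude a shared culture or batch, which the labels do not state, so pairing by number is unknown. With the replicate block, 6921 genes were higher and 6415 lower, against 7186 and 6641 without it, and VIM was at -0.48 (adjusted p = 0.0512, edgeR); the block changed no call on the 10 genes. Depth limits GFAP and PRPH on day 0, each with few counts per library.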
